A study of Mus musculus with 3 samples.

Results

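Serpins are a family of proteins that share a single fold, and most of them block serine proteases. An inhibitory serpin offers an exposed loop as bait, and the protease that cuts the loop is trapped in a lasting complex. Hepatocytes secrete many clade A, C, D, F and G serpins into plasma, where they restrain neutrophil elastase, thrombin, plasmin and the complement proteases, while clade B serpins mostly stay inside cells. A few members inhibit no protease and carry hormones or assist collagen folding instead.

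The family was taken here as every gene of the main probe set category whose symbol starts with Serpin, a clade letter from a to i, and a number. This gave 63 genes of 30921, each read by 1 probe set of 8 to 28 probes (median 20). The files mark 60 of these probe sets as unique to their transcript, and those of Serpina1e, Serpinb9f and Serpinb9g as also matching other sequences. All 63 Entrez identifiers were found in the RefSeq gene table of assembly GRCm38.p6 under the same symbol, and 61 genes carried the annotation of a serine-type endopeptidase inhibitor. RefSeq lists 61 of the 63 as protein-coding and 2 as transcribed pseudogenes.

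Liver RNA of ICR mice, an outbred stock, was hybridised to 3 MoGene-2_0-st arrays with 1 array in each group. The EEC+TMA group received Ecklonia cava, a brown alga, by mouth for 2 weeks as an ethanol extract (EEC) and trimethylamine (TMA) for 24 hours. The TMA group received distilled water for 2 weeks in place of the extract, with TMA likewise. The No treatment group received neither. Treatment began at 8 weeks of age and livers were taken at 10 weeks. The sources used here do not give the sex, the doses, the route of TMA or the number of mice behind an array. TMA against No treatment therefore differs in water as well as in TMA. With 1 array per group no test could be made and no replicate checks any difference, so each value compares arrays and not conditions, and precision is limited by their number.

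Values are log2 signals as deposited. Levels of different genes are not compared, because each probe set has its own response. The background level of an array was the 95th percentile of 1503 probe sets for odorant, vomeronasal and trace amine receptors, at 3.16 with EEC+TMA, 3.25 with TMA and 3.14 without treatment. The TMA array stood apart in its controls. Its 39 poly-A spike-in probe sets lay 0.99 higher in the median than on the No treatment array, and the 1352 exon normalization controls lay 0.37 lower. EEC+TMA minus TMA had medians of -0.99 for the spike-ins and 0.39 for the exon controls. Their part in the differences given here was not tested.

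Most serpin genes above background encode secreted plasma proteins. By this level 27 serpins were measured with EEC+TMA, 28 with TMA and 27 without treatment, that is 42.9%, 44.4% and 42.9% of the family, beside 52.7%, 51.9% and 52.8% of all genes. In all, 27 were measured on all 3 arrays, 1 on the TMA array alone and 35 on none. Of the 27 clade B genes 4 were measured, whereas the fibrinolysis, complement, hormone carrier, PEDF and collagen chaperone genes were all measured. The 35 genes below background had log2 values from 0.98 upward. They comprised 23 clade B genes, 5 antichymotrypsin-type genes (Serpina3b, Serpina3c, Serpina3f, Serpina3i and Serpina3j), Serpina1f, Serpina5, Serpina9, Serpina16, Serpine3, Serpini1 and Serpini2. Serpini1 encodes neuroserpin of the nervous system, and Serpina5 encodes the protein C inhibitor, which in mice is made mainly in the reproductive tract.

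**Figure D1:**
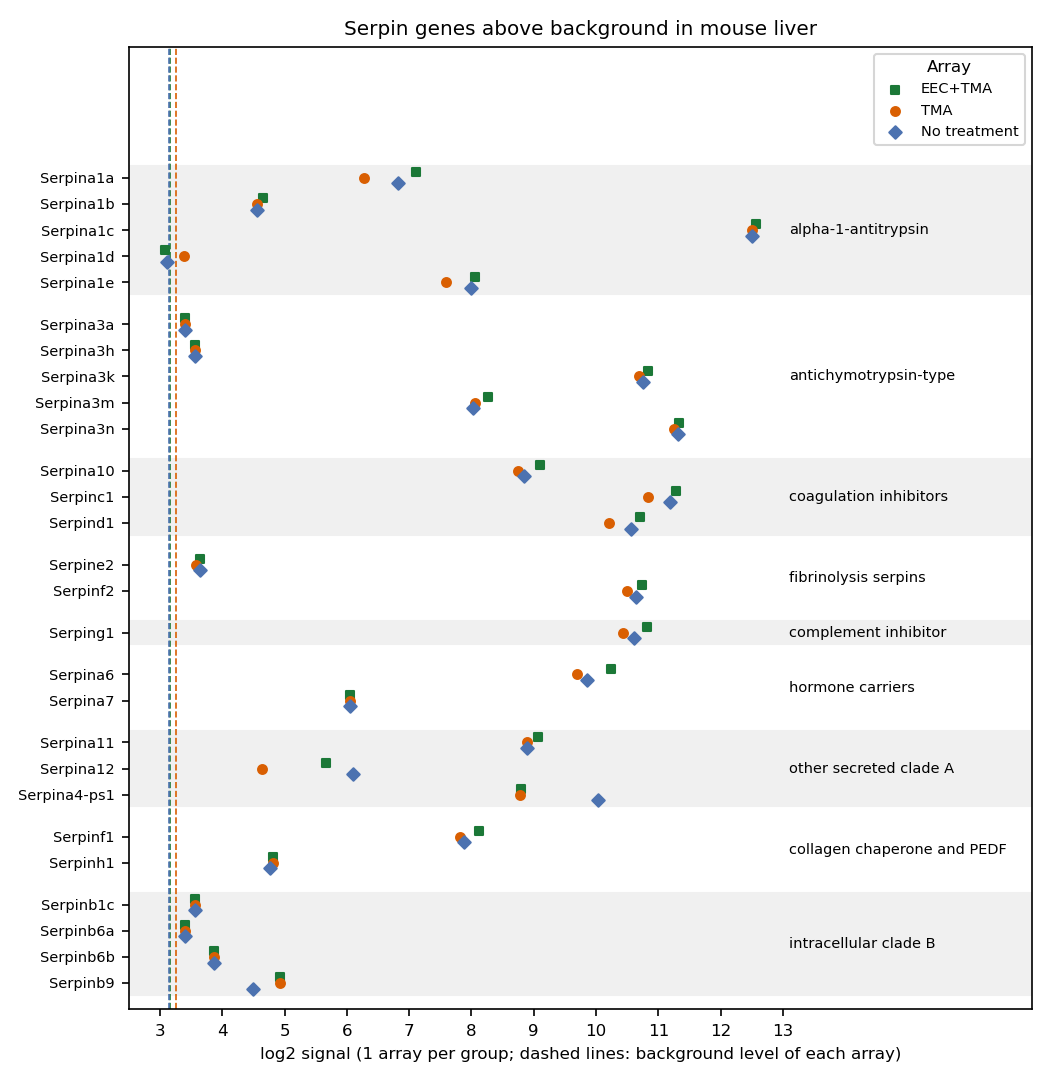
Each row is 1 of 27 serpin genes shown, all above background on at least 1 array, grouped by role, with its log2 signal on the EEC+TMA array (squares), the TMA array (circles) and the No treatment array (diamonds), 1 array each. Dashed lines mark the background level of each array. Symbols are to be read along a row. Serpina12 is lowest on the TMA array at 4.63, and Serpina4-ps1 is near 8.8 on both TMA-treated arrays and at 10.02 without treatment.

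The Serpina1 genes are near copies of each other, and their promoters show how little separates them. Mouse carries several genes where human has a single alpha-1-antitrypsin gene. Stretches of RefSeq promoter sequence (GRCm38.p6, chromosome 12, minus strand) are shown for the 5 copies, because the levels of these genes differed between arrays in unlike ways. All 5 lie in the chromosome 12 cluster. The stretches at the start site follow, with 12 bases that all 5 share, starting at GTTAAT, in capitals. That of Serpina1e ends 41 bases before the start given by RefSeq, while the others reach 11 to 22 bases past theirs.
Serpina1a (chr12:103863603-103863662): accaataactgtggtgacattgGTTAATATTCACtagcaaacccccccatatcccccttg
Serpina1b (chr12:103738178-103738237): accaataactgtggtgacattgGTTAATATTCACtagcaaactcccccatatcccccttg
Serpina1c (chr12:103904940-103904999): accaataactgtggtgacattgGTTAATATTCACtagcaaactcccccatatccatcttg
Serpina1d (chr12:103773612-103773671): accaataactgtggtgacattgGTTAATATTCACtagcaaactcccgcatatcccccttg
Serpina1e (chr12:103956938-103956997): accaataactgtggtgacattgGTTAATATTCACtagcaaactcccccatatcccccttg
From 250 bases before to 50 after the start, pairs of these promoters were 91.7% to 98.4% identical across aligned bases. The 12 capital letters occurred in 5 of 32851 promoters on either strand (0.0152%), all 5 being these genes. They were read from the Serpina1a promoter itself, so their presence in such near copies is no separate finding. The 12 letters begin with GTTAAT, the core of the binding site of HNF1 factors, which 7.1% of promoters hold and which 6 of the 20 measured serpins with a promoter in the table hold, the sixth being Serpina7.

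Further upstream the 5 copies split into groups, shown here with the 5 positions that differ in capitals.
Serpina1a (chr12:103863738-103863773): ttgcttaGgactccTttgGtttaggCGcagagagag
Serpina1b (chr12:103738315-103738350): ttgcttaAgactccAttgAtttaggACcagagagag
Serpina1c (chr12:103905075-103905110): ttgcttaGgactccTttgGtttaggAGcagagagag
Serpina1d (chr12:103773747-103773782): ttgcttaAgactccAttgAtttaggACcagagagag
Serpina1e (chr12:103957073-103957108): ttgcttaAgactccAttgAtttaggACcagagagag
Serpina1b, Serpina1d and Serpina1e carry the same letters here, and those letters hold ATTGAT, the core recognised by Onecut factors. That core stood in 7.54% of all promoters, on either strand, and in 4 of the 20 measured serpins, the fourth being Serpinf2. A match describes the letters and is no evidence that a factor binds.

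The alpha-1-antitrypsin genes, relatives of the human gene whose product blocks neutrophil elastase, differed among themselves. Serpina1a had a log2 level of 7.11 with EEC+TMA, 6.27 with TMA and 6.82 without treatment. It was thus lowest on the TMA array, 1.46-fold lower than on the No treatment array, and its EEC+TMA value exceeded its TMA value 1.78-fold. Serpina1e had levels of 8.06 (EEC+TMA), 7.58 (TMA) and 8.00 (No treatment). Its TMA value was 1.33-fold lower than that of No treatment, and its EEC+TMA value 1.39-fold higher than that of TMA. Serpina1c stood at 12.57, 12.51 and 12.51 in the same array order, and Serpina1b at 4.66, 4.56 and 4.56. As deposited, neither thus separated TMA from No treatment. Under quantile normalization TMA minus No treatment was -0.33 for Serpina1a, -0.18 for Serpina1e, 0.15 for Serpina1c and 0.01 for Serpina1b. EEC+TMA minus TMA was then 0.67 for Serpina1a, 0.25 for Serpina1e, -0.08 for Serpina1c and 0.10 for Serpina1b. Serpina1d was above background on the TMA array alone, at 3.38, with 3.09 on the EEC+TMA array and 3.11 on the No treatment array. Set against the background level, TMA was at least 1.18-fold higher than No treatment, and EEC+TMA at least 1.17-fold lower than TMA. Serpina1a and Serpina1e, of different letter groups in the upstream stretch, thus differed between arrays. Serpina1c and Serpina1b had the same deposited value on the TMA and No treatment arrays. Serpina1d, with the letters of Serpina1e, was the copy that was higher on the TMA array, but there it lay near that array's background level of 3.25. Any link between the letters and these values was not tested. Cross-hybridisation among these copies cannot be checked from 1 summary value per probe set.

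The largest serpin differences belonged to the neighbouring genes Serpina12 and Serpina4-ps1. Serpina12 encodes vaspin, a secreted serpin described in visceral fat of rats that inhibits a tissue kallikrein (Entrez 68054, chromosome 12, 104028769 to 104044443, minus strand, 21 probes). Its log2 level was 4.63 on the TMA array and 6.09 on the No treatment array, 2.75-fold lower with TMA. On the EEC+TMA array it was 5.66, 2.04-fold higher than on the TMA array and 1.34-fold lower than on the No treatment array. The authors' deposited table of TMA against No treatment, which lists 198 probe sets with folds from 2.51 upward in size, holds Serpina12 at -2.75 and no other serpin. The authors' deposited table of EEC+TMA against TMA lists 68 probe sets and no serpin. In bulk tissue, fewer cells of a type and less RNA per cell cannot be told apart.

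Serpina4-ps1, a transcribed pseudogene related to the kallistatin gene of human, had another pattern (Entrez 321018, chromosome 12, 104077959 to 104086920, plus strand, 20 probes). Its levels were 8.80 with EEC+TMA, 8.78 with TMA and 10.02 without treatment. Both TMA-treated arrays were low and nearly equal, at 2.34-fold and 2.37-fold below No treatment in that order, and EEC+TMA minus TMA was 0.02. The gap between Serpina12 and Serpina4-ps1 is 33.5 kb by the coordinates of the files, and they are read from opposite strands. The sources used here do not name the build of those coordinates, and all 63 loci overlapped their RefSeq GRCm38.p6 locus. The 120 bases upstream of the Serpina12 start (RefSeq, GRCm38.p6, minus strand) are shown because the gene had the largest difference of the family; they hold none of the motifs searched here and so no capitals.
Serpina12 (chr12:104044444-104044563): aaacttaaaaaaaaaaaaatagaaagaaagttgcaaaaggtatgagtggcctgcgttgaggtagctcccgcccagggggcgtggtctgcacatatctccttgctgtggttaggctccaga

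Counted by size, 2 of the 63 serpins, Serpina12 and Serpina4-ps1, were at least 2-fold apart between TMA and No treatment, beside 0.993% of all genes, and both were lower on the TMA array, as were 0.653% of genes, with 0.34% of genes higher. Between EEC+TMA and TMA it was 1 serpin, Serpina12, beside 0.514% of genes, and it was higher with EEC+TMA, as were 0.32% of genes, with 0.194% lower. Between EEC+TMA and No treatment it was again 1, Serpina4-ps1, beside 0.657%, and it was lower with EEC+TMA, as were 0.569% of genes, with 0.0873% higher. Such small counts against shares of this order do not set the family apart. The 1.5-fold counts were taken among genes measured on both arrays, which were 27 serpins in each comparison. They were 2 (7.41%), 2 (7.41%) and 1 (3.7%) in the same order of comparisons, beside 8.63%, 6.8% and 4.05% of genes. The additional gene was Serpina1a between EEC+TMA and TMA.

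**Figure D2:**
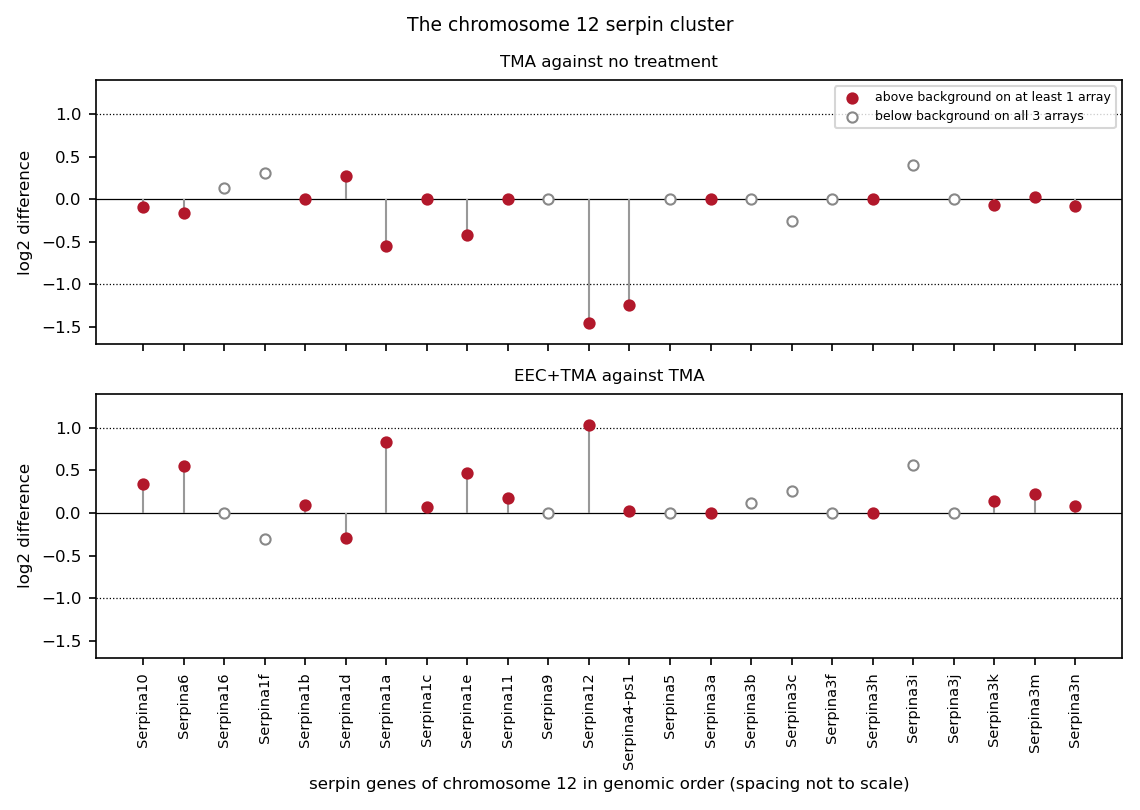
The 24 serpin genes of the chromosome 12 cluster in genomic order (x axis, spacing not to scale) with their log2 difference TMA minus No treatment (upper panel) and EEC+TMA minus TMA (lower panel). Filled points are above background on at least 1 array and open points on none. The open points are shown for place only. Serpina12 and Serpina4-ps1, side by side, reach -1.46 and -1.25 in the upper panel, and Serpina12 but not Serpina4-ps1 stands high in the lower panel.

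The chromosome 12 cluster holds 24 of the 63 serpins over 798 kb, and 15 of them were measured. Serpina9, the neighbour of Serpina12 on its other side, and Serpina5, the next gene after Serpina4-ps1, were below background on all arrays. Serpina11, a secreted clade A serpin that follows beyond Serpina9, stood at 9.07 on the EEC+TMA array and at 8.90 on both the TMA and No treatment arrays. Serpina1e, the gene after Serpina11, was lower on the TMA than on the No treatment array, as given above. Serpina3a, the next measured gene on the other side, had 1 value on all arrays. The cluster on chromosome 13 holds 15 serpins, of which 4 were measured, and chromosome 1 holds 14, of which 2 were measured.

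The antichymotrypsin-type genes, mouse relatives of human SERPINA3 and known as acute phase genes, differed little as deposited. Serpina3n had 11.33 with EEC+TMA, 11.25 with TMA and 11.32 without treatment. Serpina3k had 10.83, 10.68 and 10.75 in the same array order. Serpina3m had 8.27, 8.05 and 8.03, so that its EEC+TMA value alone stood above the others, by 1.16-fold over TMA. Serpina3a (3.39) and Serpina3h (3.56) had the same value on every array. Over the 5 measured genes of this type, as deposited, TMA minus No treatment ranged from -0.08 to 0.02 and EEC+TMA minus TMA from 0 to 0.22. These values depended on scaling. Under quantile normalization TMA minus No treatment was 0.26 for Serpina3m, 0.14 for Serpina3k, 0.05 for Serpina3n and -0.03 for Serpina3a and Serpina3h. EEC+TMA minus TMA was then 0.01 for Serpina3m, -0.08 for Serpina3k, -0.14 for Serpina3n and 0.03 for Serpina3a and Serpina3h.

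Genes of this type with like promoter letters lay on both sides of background. A 60-base stretch is shown for the 5 genes of this type that share CATTTCCTAAGA (capitals), found in 12 of 32851 promoters (0.0365%) on either strand. These letters were read from the Serpina3n promoter, and 6 of the 12 promoters belong to serpins. Serpina3n was measured, and the others were below background on all arrays (RefSeq, GRCm38.p6; plus strand except Serpina3c, minus strand).
Serpina3n (chr12:104406622-104406681): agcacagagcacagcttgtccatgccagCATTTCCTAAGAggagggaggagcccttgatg
Serpina3c (chr12:104153896-104153955): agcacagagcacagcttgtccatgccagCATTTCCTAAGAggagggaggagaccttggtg
Serpina3b (chr12:104127909-104127968): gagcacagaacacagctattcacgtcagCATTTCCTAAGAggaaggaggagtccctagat
Serpina3f (chr12:104214451-104214510): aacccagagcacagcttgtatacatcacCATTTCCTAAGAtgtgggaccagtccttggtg
Serpina3i (chr12:104263057-104263116): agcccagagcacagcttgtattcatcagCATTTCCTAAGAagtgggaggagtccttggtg
The Serpina3c promoter was 93.5% identical to that of Serpina3n, while those of Serpina3b, Serpina3f and Serpina3i were 78.2%, 77.6% and 81.3% identical to it. TTCNNNGAA, the spacing of STAT sites, stood in 8.3% of all promoters and in 2 of the 20 measured serpins, Serpina11 and Serpinb6a.

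As deposited, the coagulation inhibitors were lowest on the TMA array by modest amounts. Serpinc1, antithrombin, the main inhibitor of thrombin and factor Xa, had 11.28 with EEC+TMA, 10.84 with TMA and 11.19 without treatment. Serpind1, heparin cofactor II, which inhibits thrombin, had 10.71, 10.21 and 10.56 in the same array order. Serpina10, which inhibits factor Xa with protein Z as cofactor, had 9.10, 8.75 and 8.85. TMA minus No treatment was -0.35 for Serpinc1, -0.35 for Serpind1 and -0.09 for Serpina10. EEC+TMA minus TMA was 0.44 for Serpinc1, 0.50 for Serpind1 and 0.34 for Serpina10. Both sets depended on scaling. For TMA minus No treatment Serpina10 turned to 0.12 under quantile normalization and 0.14 under loess, while Serpinc1 stayed at -0.22 and -0.15 and Serpind1 at -0.17 and -0.14. With exon control centring all 3 were above 0, Serpinc1 and Serpind1 at 0.01 each, beside 0.36 for the median of all genes. For EEC+TMA minus TMA the same centring gave -0.08 for Serpina10, 0.02 for Serpinc1 and 0.08 for Serpind1, beside -0.42 for all genes.

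The fibrinolysis serpins and the complement inhibitor were next. Serpinf2, alpha-2-antiplasmin, which inhibits plasmin, had 10.74 with EEC+TMA, 10.50 with TMA and 10.65 without treatment. Serpine2, protease nexin 1, had 3.64, 3.58 and 3.64 in the same array order. Serping1, the C1 inhibitor of complement and plasma kallikrein, had 10.81, 10.44 and 10.61, with the lowest value on the TMA array. The TMA minus No treatment differences of Serpinf2 (-0.14) and Serping1 (-0.17) turned to 0.06 and 0.03 under quantile normalization.

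Among serpins that inhibit no protease, Serpina6, the cortisol and corticosterone carrier of plasma, showed the clearest difference. It had 10.24 with EEC+TMA, 9.69 with TMA and 9.86 without treatment. The EEC+TMA array was highest, by a log2 difference of 0.55 over TMA and 0.38 over No treatment as deposited. These 2 differences were 0.39 and 0.41 under quantile normalization, and 0.13 and 0.33 with exon control centring. TMA minus No treatment of Serpina6 turned from -0.17 to 0.03 under quantile normalization. Serpina7, the thyroxine carrier, had 6.05 on every array. Serpinf1, pigment epithelium-derived factor, had 8.13, 7.81 and 7.88 in the array order of Serpina6, so that EEC+TMA was 1.24-fold above TMA. That log2 difference, 0.32 as deposited, was 0.09 under quantile normalization and -0.10 with exon control centring. Serpinh1, the collagen chaperone of the endoplasmic reticulum, had 4.81, 4.81 and 4.77.

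Of the intracellular clade B genes, Serpinb9, an inhibitor of granzyme B, was the only measured member whose arrays differed. It had 4.93 with EEC+TMA, 4.93 with TMA and 4.49 without treatment, so both TMA-treated arrays were 1.36-fold above No treatment. Each of these levels was also held by another gene on all 3 arrays, 4.93 by a collagen gene and 4.49 by a STAT3 signalling gene. The difference is thus a step between shared levels, although no other gene had the same 3 values. Serpinb1c (3.56), Serpinb6a (3.39) and Serpinb6b (3.87) had the same value on all 3 arrays. Identical values were common in the deposited tables: 46.2% of all genes and 21 of the 63 serpins (33.3%) had 1 value on all arrays. The 6 measured serpins of this kind, Serpina3a, Serpina3h, Serpina7, Serpinb1c, Serpinb6a and Serpinb6b, shared their exact 3 values with other genes, which for Serpina3a and Serpinb6a meant the same set of 314 genes. A shared value of this kind carries no information on the gene alone.

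**Figure D3:**
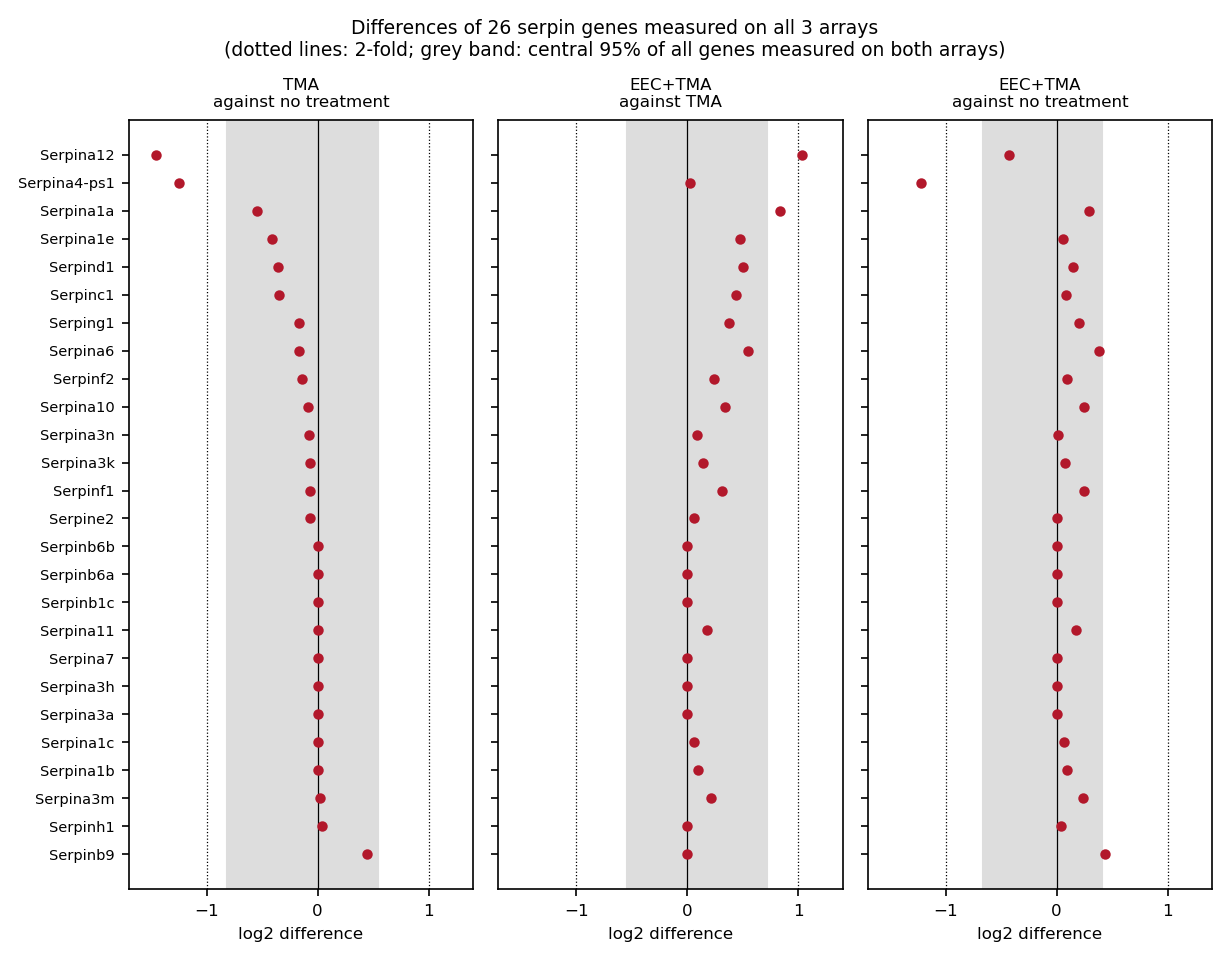
Log2 differences of 26 serpin genes measured on all 3 arrays, 1 gene per row, for TMA minus No treatment (left), EEC+TMA minus TMA (middle) and EEC+TMA minus No treatment (right). Grey bands hold the central 95% of all genes measured on both arrays and dotted lines mark 2-fold. Serpina12 and Serpina4-ps1 lie outside the left band, Serpina12 and Serpina1a outside the middle band, and Serpina4-ps1 and Serpinb9 outside the right band.

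Across the family most differences were small. As deposited, most serpins that differed were higher on the EEC+TMA array than on either other array. Among the 27 serpins measured on both the TMA and No treatment arrays, 14 were lower on the TMA array, 4 higher and 9 identical, beside 37.6%, 19.1% and 43.3% of 15715 genes. Their median difference was -0.07 and that of all genes 0. Between EEC+TMA and TMA 18 were higher on the EEC+TMA array, 1 lower and 8 identical, beside 36.4%, 19.2% and 44.3% of 15749 genes, with a median of 0.10 against 0. Between EEC+TMA and No treatment 17 were higher on the EEC+TMA array, 2 lower and 8 identical, beside 25.5%, 19.9% and 54.7% of 16129 genes, with a median of 0.07 against 0. The comparisons share arrays, so their counts do not stand apart from each other. Most single differences lay within the central 95% of all genes, which ran from -0.81 to 0.55, from -0.54 to 0.72 and from -0.67 to 0.41 in the same order of comparisons.

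The lower values with TMA depended on how the arrays were scaled. Of the 18 serpins that differed between TMA and No treatment, 9 kept their sign under median centring, quantile normalization and loess. They included Serpina12, Serpina4-ps1, Serpina1a, Serpina1e, Serpinc1, Serpind1 and Serpine2, lower, and Serpinb9, higher. The family median turned to 0.0252 under quantile normalization and to 0.0412 under loess. For EEC+TMA minus TMA 14 of 19 kept their sign, 13 of them higher. In the comparison of EEC+TMA with No treatment 18 of 19 kept it, 16 of them higher. Centring on the exon controls, an alternative chosen after seeing the data, moved the median of all genes to 0.36 for TMA minus No treatment and to -0.42 for EEC+TMA minus TMA. The family moved with it, to 0.30 and -0.32. Counting this scaling too, 6 of 18 serpins kept their sign for TMA minus No treatment, 7 of 19 for EEC+TMA minus TMA and 17 of 19 for EEC+TMA against No treatment. Under that scaling Serpina12 was at -1.10 for TMA minus No treatment and 0.61 for EEC+TMA minus TMA, and Serpina4-ps1 at -0.88 for TMA minus No treatment.

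**Figure D4:**
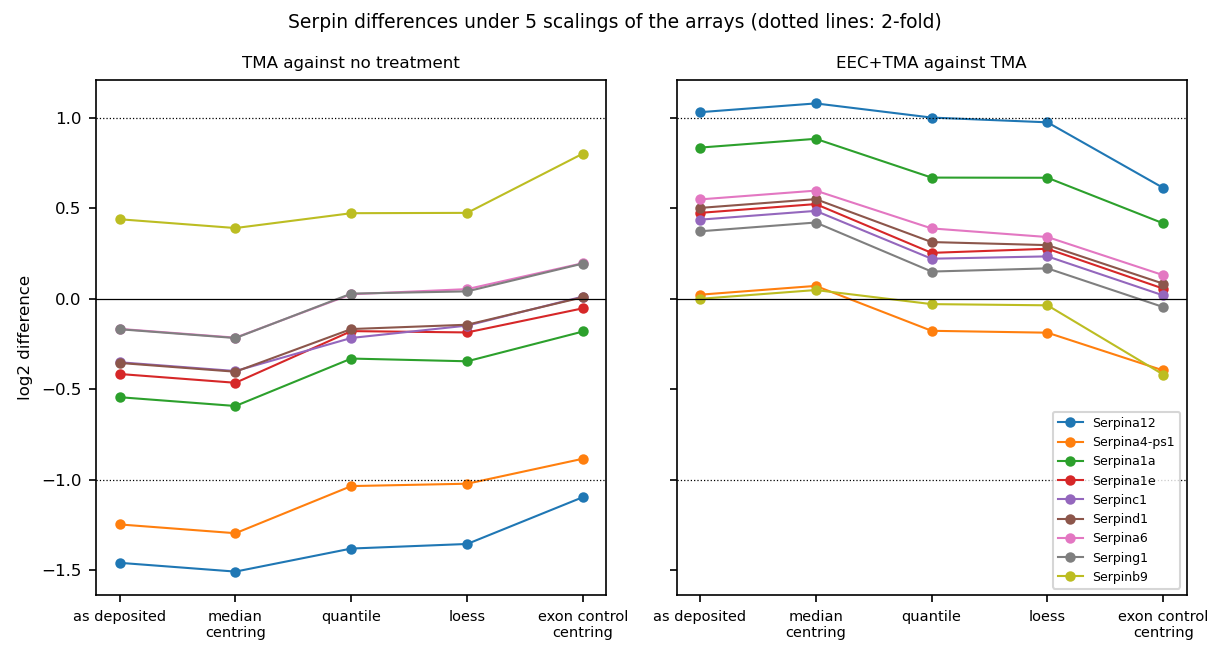
Log2 differences of 9 serpin genes (lines) under the deposited scaling and 4 others (x axis), for TMA minus No treatment (left) and EEC+TMA minus TMA (right), with dotted lines at 2-fold. Serpina12 and Serpina4-ps1 keep their place below the other genes on the left, while Serpina6 and Serping1 cross 0 there. Serpinc1 and Serpind1 also cross 0 on the left, to 0.01 each, with exon control centring. On the right Serpina12 is above the 2-fold line as deposited and at 0.61 with exon control centring.

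Genes that act with the serpins showed differences of unlike size, and their signs also depended on scaling. For TMA minus No treatment as deposited, the coagulation, other plasma inhibitor, secretory and interleukin 6 lists had medians further below 0 than the family's -0.07. The cofactor and collagen lists had medians of 0 there. With exon control centring the medians of the coagulation, other plasma inhibitor, secretory and interleukin 6 lists ranged from 0.08 to 0.19 in TMA minus No treatment, below the 0.36 of all genes. In EEC+TMA minus TMA they ranged from -0.18 to -0.09, above the -0.42 of all genes. Of 13 coagulation and fibrinolysis proteases, the targets of the coagulation and plasmin inhibitors, 9 were lower on the TMA than on the No treatment array and 1 was higher, with a median of -0.23, or -0.04 after quantile normalization and -0.02 after loess. Klkb1, plasma prekallikrein, was the gene of this list at least 1.5-fold apart, 1.55-fold lower with TMA at 9.17 against 9.80. Of the 13, 11 were higher on the EEC+TMA than on the TMA array, with a median of 0.33, or 0.14 after quantile normalization. Of 7 measured complement proteases 4 were lower on the TMA array (median -0.07, but 0.02 after quantile normalization or loess), with Masp1, a protease of the lectin pathway, 1.63-fold lower at 8.48 against 9.19. The neutrophil and lymphocyte granule proteases that several serpins inhibit were at background, with 1 of 10 measured.

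Other plasma inhibitors of proteases, such as the inter-alpha-inhibitor heavy chains and murinoglobulins, had 15 of 19 measured genes lower on the TMA than on the No treatment array, with a median of -0.17. Their median was -0.01 after quantile normalization and 0.02 after loess. Between EEC+TMA and TMA 16 of the 19 were higher on the EEC+TMA array, with a median of 0.24. Taking instead all 61 genes outside the family that carry the serine-type endopeptidase inhibitor annotation, 30 were measured on the TMA and No treatment arrays, 16 of them lower and 4 higher with a median of -0.06, and none was 2-fold apart. The serpins' own median for that comparison was -0.07. For EEC+TMA minus TMA these annotated genes had a median of 0.02 beside 0.10 for the serpins, and for EEC+TMA minus No treatment 0 beside 0.07. Of the 9 measured lysosomal cathepsins, some of them targets of clade B serpins, 8 were higher on the EEC+TMA than on the TMA array with a median of 0.27, with 0.10 after quantile normalization and -0.15 with exon control centring.

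Genes that fold serpins in the secretory pathway or dispose of misfolded ones gave 18 of 20 lower on the TMA than on the No treatment array, with a median of -0.28, and -0.12 after quantile normalization or loess. Pdia6 and Pdia4, which form and rearrange disulfide bonds, were higher on the EEC+TMA than on the TMA array, by 1.74-fold and 1.65-fold in that order. Of the 11 measured collagens and collagen-processing genes, the field of Serpinh1, 5 were higher on the EEC+TMA than on the TMA array and 6 identical as deposited. The 3 at least 1.5-fold apart there were Col14a1 (0.70), Plod1 (0.70) and P4ha1 (0.61), given as log2 differences. For the same comparison of these 11 genes, quantile normalization gave 5 higher and 6 lower, and exon control centring 4 higher and 7 lower. Among receptors and cofactors, Lrp1, which clears serpin and protease complexes from plasma, had 9.63 with EEC+TMA, 8.68 with TMA and 9.39 without treatment. Lrp1 was thus 1.64-fold lower with TMA than without treatment and 1.93-fold higher with EEC+TMA than with TMA. In the list of hormone carriers and their partners, Agt, angiotensinogen, itself of the serpin fold but not of the symbol, was 1.74-fold higher on the EEC+TMA than on the TMA array, and Thrb, a thyroid hormone receptor, was 1.57-fold lower on the TMA than on the No treatment array.

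The regulators known for hepatic serpin genes were mixed. Onecut1, a hepatocyte transcription factor, had 7.01 with EEC+TMA, 7.08 with TMA and 8.59 without treatment, so it was 2.85-fold lower with TMA and 2.99-fold lower with EEC+TMA than without treatment. Foxa1, a pioneer factor of liver, was 1.62-fold lower on the TMA than on the No treatment array and 1.63-fold higher on the EEC+TMA than on the TMA array. Nr1h4, the bile acid receptor, was 1.63-fold lower on the TMA than on the No treatment array. Beside Onecut1, TMA minus No treatment of the Serpina1 copies with the ATTGAT core was, as deposited, -0.42 for Serpina1e, 0 for Serpina1b and at least 0.24 for Serpina1d. Of the copies without the core it was -0.54 for Serpina1a and 0 for Serpina1c. EEC+TMA minus No treatment was 0.06 for Serpina1e and 0.10 for Serpina1b, with the core, and 0.29 for Serpina1a and 0.07 for Serpina1c, without it. Serpina1d was below background on both of those arrays. Serpina1d lay near background, and any link of these copies to Onecut1 was not tested. Among interleukin 6 and STAT3 signalling genes, which drive the acute phase response, 10 of 12 were lower on the TMA than on the No treatment array, with a median of -0.28 (-0.11 after quantile normalization or loess). Il6st, the shared receptor chain, was 2.07-fold lower on the TMA than on the No treatment array, and 1.54-fold higher with EEC+TMA than with TMA. Stat3 was 1.53-fold lower with TMA than without treatment, and 1.89-fold higher with EEC+TMA than with TMA. Lifr, a receptor chain for leukemia inhibitory factor, was 1.53-fold lower with TMA than without treatment. Jak1, a kinase that activates STAT proteins, was 1.64-fold higher with EEC+TMA than with TMA.

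All 9 hepatocyte markers found on the array were above background. The 9 hepatocyte markers on the array had mean log2 levels of 12.23 with EEC+TMA, 11.90 with TMA and 12.20 without treatment. Of these 9, 8 were lower on the TMA than on the No treatment array (median -0.28, with -0.22 after quantile normalization, -0.10 after loess and 0.08 with exon control centring), and 9 were higher on the EEC+TMA than on the TMA array (median 0.37, with 0.17 after quantile normalization or loess and -0.05 with exon control centring). The 8 sinusoidal endothelial markers averaged 6.80, 6.30 and 6.67 in the same array order, and the 10 Kupffer cell and macrophage markers 5.99, 5.83 and 5.63. Unlike the hepatocyte markers, 8 of these 10 were higher on the TMA than on the No treatment array and 1 was lower (median 0.13). None of the 8 neutrophil and monocyte markers reached background on any array. The part of cell makeup in the serpin differences was not tested.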

How the data were processed

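The authors deposited log2 values, 1 per probe set and array, whose summary and normalization the sources used here do not give. The authors also deposited folds, as a ratio between 2 arrays for listed probe sets, which were copied and not recomputed. Total RNA came from 100 mg of frozen liver and was labelled with biotin, per the labels' protocols. For each symbol the probe set of highest mean over the 3 arrays was kept, which left 63 serpins unaltered, since each had 1. Values were compared as log2 differences. A gene was called 2-fold apart when its difference was at least 1 in size after each array was raised to its background level. Where only 1 of a pair of arrays was above background, the fold is a lower bound against that level. Every serpin above background on at least 1 array was named, except 1 that is counted but not reported here, and list members at least 1.5-fold apart, up to 4 per list and comparison. No test was made. The family, the lists and the alternatives were chosen with earlier results of these data known. Alternatives were median centring, quantile normalization, loess (span 0.3), background at the 90th or 99th percentile or none, other probe set choices, the second deposited table of log2 values, thresholds of 1.5-fold and 3-fold, and the mean. Exon control centring and leaving out identical genes were chosen after seeing the data. The scripts were tested on simulated data. Promoters came from RefSeq (GRCm38.p6) for 52 of the 63 serpins and were searched on both strands. Python 3.11.15, pandas 2.3.3, numpy 2.4.6, statsmodels 0.14.6 and Biopython 1.88 were used.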

Additional observations from a re-analysis of the deposited data

How the results depend on the processing

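The family median for TMA minus No treatment, -0.07 as deposited, was 0.0252 under quantile normalization, 0.0412 under loess, 0.30 with exon control centring and -0.17 as a mean. The median for EEC+TMA minus TMA, 0.10 as deposited, was 0.03 under quantile normalization, 0.04 under loess and -0.32 with exon control centring. It was 0.23 with background at the 99th percentile, 0.22 as a mean and 0.24 without identical genes. Exon control centring adds 1 constant per array, so it moved the medians of all genes as well, to 0.36 and -0.42. The count of serpins at least 2-fold apart between EEC+TMA and TMA was 0 under loess, where Serpina12 reached 0.98, 0 with exon control centring, 2 at 1.5-fold and 0 at 3-fold. Between TMA and No treatment it was 1 with exon control centring and 0 at 3-fold, and between EEC+TMA and No treatment 0 at 3-fold. Exon control centring gave 369 genes 2-fold apart between TMA and No treatment and 377 between EEC+TMA and TMA, against 307 and 159 as deposited. Of 837 values recomputed for single serpins 716 stayed within 0.1 and 121 moved further, 32 under quantile normalization, 33 under loess and 56 with exon control centring, and no called serpin changed sign. The 716 are no measure of stability, because most settings could not move a value. Background levels do not enter a single difference, each serpin had 1 probe set, and the shift of median centring was below 0.1. The cause of these shifts was not tested. No paired analysis was possible because each group has 1 array and no result comes from a test. Signal over background limits the 35 serpins below background, whose differences were not read.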
